A study of Rattus norvegicus with 12 samples.

Results

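Toll-like receptors are membrane sensors that bind microbial molecules, and some of them also bind molecules released by injured cells. This account follows 10 rat genes of the system in the retina: the surface receptors Tlr1, Tlr2, Tlr4 and Tlr6, the endosomal receptors Tlr3, Tlr7 and Tlr9, the lipopolysaccharide coreceptors Cd14 and Ly96, and the adaptor Myd88. They were chosen by name, as the rows of the deposited gene table whose gene symbol equals one of these symbols. All 10 were found among the 30560 genes of the table, and all 10 passed the filter on low counts that left 16260 genes for testing.

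RNA sequencing was done on total RNA from the retinas of 12 rats, 1 library per rat. In the 6 control rats, 2 µL of phosphate-buffered saline (PBS) was injected into the vitreous of the eye. In the other 6 rats, the same volume of 20 mM NMDA (N-methyl-D-aspartate), a glutamate receptor agonist that is toxic to retinal ganglion cells, was injected, and the series calls this a rat model of glaucoma. Strain, age, sex and the time from injection to tissue collection are not given in the sources used here, and no uninjected retina is among the samples.

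As background, TLR2 binds bacterial lipoproteins as a pair with TLR1 or TLR6. TLR4 binds lipopolysaccharide through MD-2, the product of Ly96, and CD14 hands the ligand over to that complex. TLR3, TLR7 and TLR9 sit in endosomes, where they bind double-stranded RNA, single-stranded RNA and unmethylated CpG DNA, and all receptors in this group except TLR3 signal through MyD88. In the retina these receptors are best known from microglia, the resident macrophages, and from recruited myeloid cells, while TLR3 and TLR4 have also been described in Müller glia and pigment epithelium.

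The libraries held between 16415611 and 34022023 counts, which were turned into CPM (counts-per-million of the library total, with TMM factors) for every level except those in FPKM, a level per length of transcript. The tissue label was matched by a high level of retinal neuron genes, whose 12 listed markers summed to between 30704 and 47067 CPM. The first principal component (44.7% of variance) separated the groups, with PBS 5 nearest to the NMDA libraries. Library NMDA 1 stood apart on the second component (15.7%). Differences were tested with edgeR's quasi-likelihood test with Benjamini-Hochberg adjustment over all tested genes, and a gene is called at an adjusted p under 0.05. The labels number the rats separately, so the spread between libraries is that between rats.

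Of the 10 genes, 9 rose in the NMDA retinas, none fell, and Tlr3 alone was not called. Among all tested genes, 20.4% were called higher, 17.5% lower and 37.9% in either direction. The median log2 fold change of the 10 genes was 1.09, and that of all tested genes was 0.01. In 5 genes (Cd14, Tlr1, Tlr2, Tlr7 and Myd88) every NMDA library lay above every PBS library, a separation that 9.43% of all tested genes showed. In the other 5 genes the groups overlapped. The share of all called genes that were higher was 53.8%, and it became 64.6% when libraries were scaled by total count alone, where 9 of the 10 genes were still called higher. In bulk tissue, more cells of a type and more RNA per cell cannot be told apart, and this holds for every change given here.

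**Figure D1:**
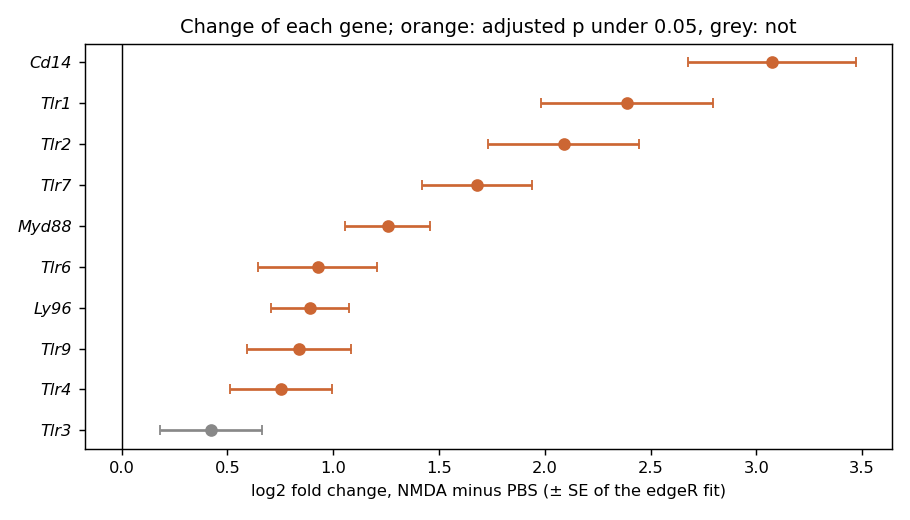
Log2 fold change of each of the 10 genes, NMDA minus PBS, with the standard error of the edgeR fit (6 libraries per group). Cd14 had the highest value at 3.07, and Tlr3 had the lowest at 0.42.

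RefSeq promoter windows of the GRCr8 assembly were matched by symbol for 9 of the 10 genes, all but Ly96. Each window covers the 250 bases before an annotated start of the gene. The windows of Cd14, Tlr1, Tlr2 and Tlr7 do not lie wholly outside the RefSeq span of their gene, so they need not precede its outermost start. Both strands were searched for 5 motifs, and their share was counted over 33360 distinct windows of the same length. The NF-kB consensus, which the factor at the end of the MyD88 pathway recognises, was found in 1 of the 9 windows, that of Tlr2, and in 3.55% of all windows. The interferon-stimulated response element (GAAA, any 2 bases, GAAA; 3.41% of all windows) and the STAT motif (TTCNNNGAA, 7.68%) were each found only in Myd88 among the 9. The AP-1 motif (TGANTCA, 6.35%) was found in Myd88 and Tlr9. The PU.1 core (GAGGAA, 23.3%), named for the macrophage transcription factor PU.1, was found in 6 of the 9 windows, those of Cd14, Tlr3, Tlr4, Tlr6, Tlr7 and Tlr9. Such a match describes the letters of the window and does not show that a factor binds there. The windows of Myd88, Tlr2 and Tlr9 are shown because they hold the rarer motifs, which stand in capitals. For Myd88 the whole window is given (GRCr8, chr8:127956231-127956480, minus strand), with the AP-1 match first and then a single stretch in which the STAT and interferon motifs overlap. For Tlr2, 30 bases around the NF-kB match are given (chr2:171504743-171504772, minus strand). The Tlr2 window does not lie wholly outside the RefSeq span of the gene. For Tlr9, 30 bases around the AP-1 match are given (chr8:115743331-115743360, plus strand).
Myd88: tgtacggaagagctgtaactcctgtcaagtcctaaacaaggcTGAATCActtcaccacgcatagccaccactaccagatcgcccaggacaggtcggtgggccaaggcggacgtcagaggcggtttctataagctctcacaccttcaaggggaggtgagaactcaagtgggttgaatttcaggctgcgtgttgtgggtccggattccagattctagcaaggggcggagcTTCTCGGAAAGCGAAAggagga
Tlr2: aggcccttgGGGGAATTCCCatacggagcc
Tlr9: caaatgacgtgTGACTCAttgtaccacctg

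The lipoprotein receptors Tlr2 and Tlr1 had the largest changes among the 7 receptors. Tlr2 (ENSRNOG00000009822, chromosome 2, 169197419 to 169206630 in the deposited table, whose genome build is not given in the sources used here) ran from 1.09 to 2.18 CPM in the PBS retinas, with a median of 1.43. In the NMDA retinas it ran from 3.47 to 13.04 CPM, with a median of 4.62. The groups did not overlap, and NMDA 6 and NMDA 5 lay well above the other NMDA libraries. The means were 1.51 ± 0.427 CPM for PBS and 6.38 ± 3.86 CPM for NMDA (SD, n = 6 each), which gave 2.09 as the log2 fold change (SE 0.36; adjusted p = 0.00073143 in edgeR). Its promoter window is the one with the NF-kB match.

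Tlr1 (ENSRNOG00000038722, chromosome 14, 43384932 to 43397125), which supplies the partner chain for triacylated lipoproteins, ran from 0.181 to 0.928 CPM in the PBS retinas (median 0.489). It ran from 1.06 to 4.75 CPM in the NMDA retinas (median 3.13). The groups did not overlap, although the lowest NMDA library, NMDA 2, was close to the highest PBS library. The log2 fold change was 2.39 ± 0.41 (SE, edgeR adjusted p = 0.00066985), from means of 0.559 ± 0.289 and 2.86 ± 1.31 CPM (SD, n = 6 each). The lowest PBS value rested on 5 counts, the lowest count of any of the 10 genes.

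Tlr6 (ENSRNOG00000002161, chromosome 14, 43362164 to 43375685), the partner chain for diacylated lipoproteins, changed less. It ran from 0.804 to 2.06 CPM in the PBS retinas (median 1.04) and from 1.19 to 3.68 CPM in the NMDA retinas (median 2.25). The groups overlapped because PBS 5 was high, and 4 of 6 NMDA libraries lay above the highest PBS library. Tlr6 rose by 0.93 in log2 terms (SE 0.28; edgeR adjusted p = 0.019844). Tlr1 and Tlr6 are closely related neighbours on chromosome 14, and how reads that match both were counted is not given in the sources used here, so the split between them is uncertain. If no shared read was dropped or counted for both genes, their summed level does not depend on that split. The sum was 1.74 ± 0.615 CPM in PBS (1.23 to 2.94) and 5.13 ± 2.11 CPM in NMDA (2.73 to 8.43, SD, n = 6 each). The ratio of these means was 2.94.

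The lipopolysaccharide receptor and its coreceptors changed by unequal amounts. Tlr4 (ENSRNOG00000010522, chromosome 5, 80145826 to 80159628), the signalling chain, ran from 1.07 to 2.14 CPM in the PBS retinas (median 1.25) and from 1.53 to 3.16 CPM in the NMDA retinas (median 2.39). The groups overlapped, with 3 of 6 NMDA libraries above the highest PBS library, which was again PBS 5. Its log2 fold change of 0.75 ± 0.24 (SE) was the lowest of the called genes (edgeR adjusted p = 0.025529). The call was lost when any of PBS 1, PBS 4, PBS 6, NMDA 3, NMDA 5 or NMDA 6 was left out, with an adjusted p of up to 0.06069 in edgeR.

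Cd14 (ENSRNOG00000017819, chromosome 18, 28335340 to 28337261), the lipid-anchored carrier that delivers lipopolysaccharide, had the highest fold change of the 10 genes. It ran from 0.443 to 1.61 CPM in the PBS retinas (median 0.851) and from 3.60 to 15.3 CPM in the NMDA retinas (median 5.54). Every NMDA library was above every PBS library, and the spread among the NMDA libraries was wide. The means were 0.909 ± 0.409 and 7.48 ± 4.34 CPM (SD, n = 6 each), which gave 3.07 as the log2 fold change (SE 0.40; 8.42-fold; adjusted p = 0.00015588 in edgeR).

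Ly96 (ENSRNOG00000067966, chromosome 5, 2582254 to 2612386), which encodes the lipopolysaccharide-binding subunit MD-2, ran from 0.681 to 1.23 CPM in the PBS retinas (median 0.794). It ran from 1.23 to 2.05 CPM in the NMDA retinas (median 1.55). PBS 4 stood above the other PBS libraries and just above the lowest NMDA library, so the groups overlapped by that pair. In log2 terms it rose by 0.89 ± 0.18 (SE, edgeR adjusted p = 0.0022106).

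**Figure D2:**
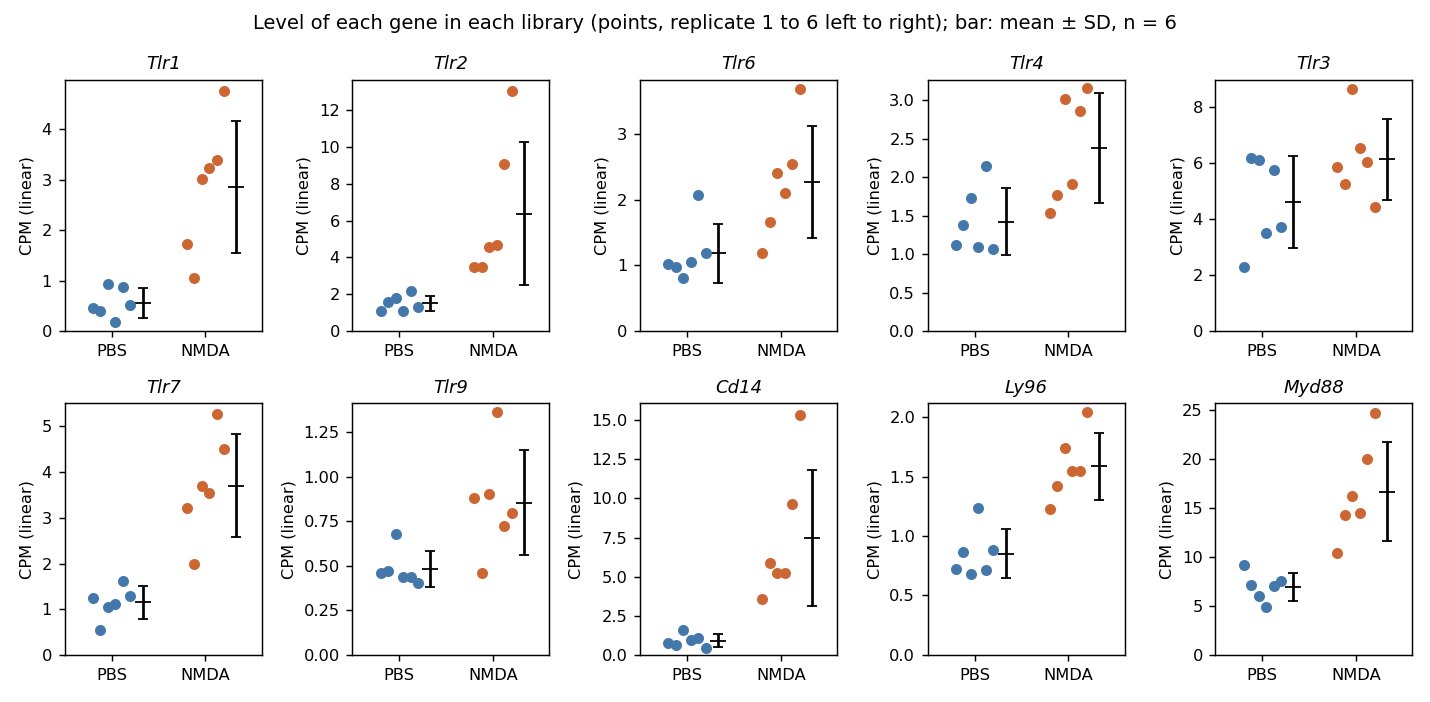
Level of each of the 10 genes in every library, in CPM after TMM scaling, with a panel for each gene and points for the 6 PBS and 6 NMDA libraries. The groups are apart for Tlr1, Tlr2, Tlr7, Cd14 and Myd88 and overlap for Tlr3, Tlr4, Tlr6, Tlr9 and Ly96.

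Of the endosomal receptors Tlr3, Tlr7 and Tlr9, Tlr7 had the largest change. Tlr7 (ENSRNOG00000004249, chromosome X, 27027425 to 27054754), the sensor of single-stranded RNA, ran from 0.549 to 1.63 CPM in the PBS retinas (median 1.19) and from 1.98 to 5.27 CPM in the NMDA retinas (median 3.61). The groups did not overlap, and PBS 2 was the lowest library. This was a log2 change of 1.68 ± 0.26 (SE, edgeR adjusted p = 0.00038618), from means of 1.15 ± 0.355 and 3.70 ± 1.12 CPM (SD, n = 6 each).

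Tlr9 (ENSRNOG00000048161, chromosome 8, 106864680 to 106868796), the sensor of unmethylated CpG DNA, had the lowest mean count level of the 10 genes. It ran from 0.406 to 0.681 CPM in the PBS retinas (median 0.449) and from 0.461 to 1.36 CPM in the NMDA retinas (median 0.840). In 5 of 6 NMDA libraries it lay above the highest PBS library, PBS 3, while NMDA 2 lay among the PBS libraries. The log2 fold change was 0.84 ± 0.25 (SE, edgeR adjusted p = 0.016133), and it rested on between 11 and 37 counts per library.

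Tlr3 (ENSRNOG00000021726, chromosome 16, 46822039 to 46836545), the sensor of double-stranded RNA that signals through TRIF in place of MyD88, was not called. It ran from 2.28 to 6.20 CPM in the PBS retinas (median 4.74) and from 4.44 to 8.65 CPM in the NMDA retinas (median 5.94). The groups overlapped widely, and 2 of 6 NMDA libraries lay above the highest PBS library. The log2 fold change of 0.42 ± 0.24 (SE) had an edgeR adjusted p of 0.18856, so a difference between the groups was not shown. NMDA 6, the highest NMDA library for 7 of the 10 genes (Tlr1, Tlr2, Tlr4, Tlr6, Cd14, Ly96 and Myd88), was the lowest NMDA library for Tlr3.

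Myd88 (ENSRNOG00000013634, chromosome 8, 119074437 to 119079415), the adaptor that links the receptors to the IRAK kinases, had the highest mean count level in both groups. It ran from 4.90 to 9.14 CPM in the PBS retinas (median 7.06) and from 10.4 to 24.7 CPM in the NMDA retinas (median 15.4). The groups did not overlap, and NMDA 1 was the lowest NMDA library. The log2 fold change was 1.26 ± 0.20 (SE, 2.39-fold, edgeR adjusted p = 0.00045615), from means of 6.96 ± 1.43 and 16.7 ± 5.02 CPM (SD, n = 6 each).

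Levels can be compared between genes only per length, for which the deposited FPKM were used. In the PBS retinas the order of mean FPKM was Myd88, Tlr3, Ly96, Cd14, Tlr4, Tlr9, Tlr2, Tlr1, Tlr6 and Tlr7, from 1.12 ± 0.225 for Myd88 to 0.0806 ± 0.0250 for Tlr7 (SD, n = 6). In this order the ranges of neighbouring genes overlapped everywhere except between Tlr4 (0.398 ± 0.124 FPKM) and Tlr9 (0.143 ± 0.0298 FPKM). In the NMDA retinas the order was Cd14, Myd88, Ly96, Tlr3, Tlr4, Tlr1, Tlr2, Tlr7, Tlr9 and Tlr6, from 4.18 ± 2.47 FPKM for Cd14 to 0.232 ± 0.0897 FPKM for Tlr6. There the neighbours Tlr3 (1.34 ± 0.308 FPKM) and Tlr4 (0.690 ± 0.213 FPKM) were the ones whose ranges did not overlap. Cd14 had 0.488 ± 0.221 FPKM in PBS and stood below Myd88, Tlr3 and Ly96 there. In NMDA its mean FPKM stood above theirs. The mean CPM in NMDA was 16.7 for Myd88 and 7.48 for Cd14. The place of Cd14 above Myd88 thus rests on the lengths behind the deposited FPKM, which were not examined.

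**Figure D3:**
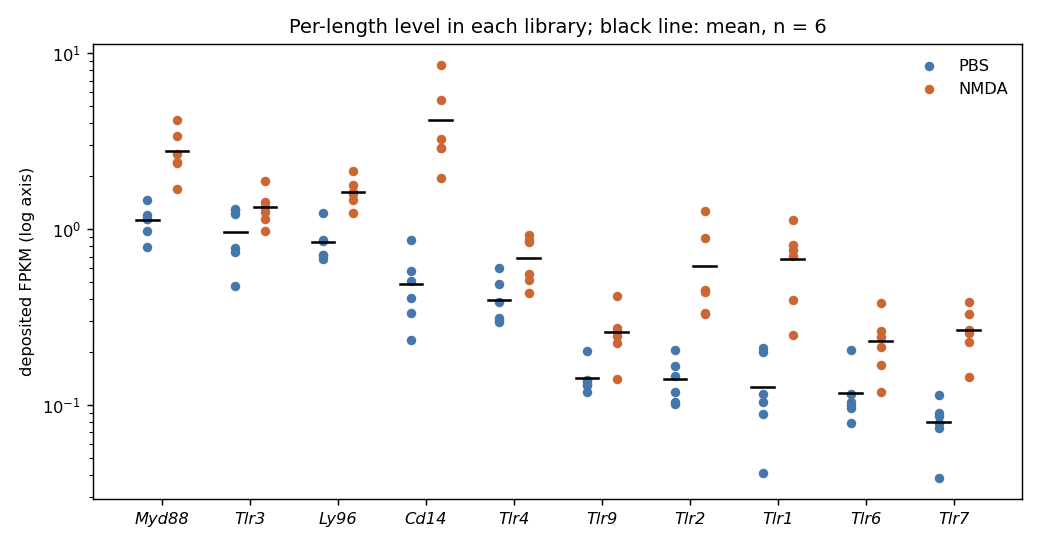
Deposited FPKM of each gene in every library on a log axis, ordered by the PBS mean, with black lines for the means of 6 libraries per group. Myd88, Tlr3, Ly96, Cd14 and Tlr4 lie above the other 5 genes in the PBS retinas.

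Because partner chains act together, the log2 ratio of FPKM (pseudocount 0.01) was compared for 8 pairs with a two-sided exact permutation test over the 924 ways to assign the libraries, adjusted over the 8 pairs. The smallest p this design allows is 0.00216. In 6 of the 8 pairs the ratio differed between groups. The pairs share genes, so these are not independent results. Within Tlr4, Cd14 and Ly96, and within Tlr1, Tlr2 and Tlr6, each log2 ratio follows from the others. The log2 ratio of Tlr4 to Cd14 was -0.22 ± 0.48 in PBS and -2.46 ± 0.51 in NMDA (SD, n = 6 each; exact p = 0.00216, adjusted 0.00866), and the groups did not overlap. The log2 ratio of Cd14 to Ly96 went from -0.87 ± 0.79 to 1.19 ± 0.57, also without overlap (exact permutation p = 0.00216, adjusted 0.00866). The ratio of Tlr4 to Ly96, receptor chain to its bound subunit, was -1.09 ± 0.65 in PBS and -1.27 ± 0.26 in NMDA and did not pass the test (exact permutation p = 0.526, adjusted 0.526). So the coreceptor Cd14 and the pair of Tlr4 and Ly96 changed by unequal amounts.

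Among the lipoprotein receptors, Tlr1 relative to Tlr6 differed by 1.42 on the log2 scale (exact permutation adjusted p = 0.0115) and Tlr2 relative to Tlr6 by 1.00 (adjusted p = 0.013). Tlr2 relative to Tlr1 differed by -0.42 and did not pass (exact permutation p = 0.188, adjusted 0.215). The ratios with Tlr1 or Tlr6 carry the uncertainty of reads shared by these genes. Among the endosomal receptors, Tlr7 relative to Tlr3 differed by 1.10 and Tlr7 relative to Tlr9 by 0.83 (exact permutation adjusted p = 0.0317 for each). Those differences were less firm. With a pseudocount of 0.1 they were 0.54 (adjusted p = 0.153) and 0.46 (adjusted p = 0.0797) by the same exact permutation test. The ratio of Tlr7 to Tlr3 also lost its call without PBS 2, PBS 3, NMDA 5 or NMDA 6, and that of Tlr7 to Tlr9 without PBS 2, PBS 3, NMDA 2, NMDA 3, NMDA 5 or NMDA 6.

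**Figure D4:**
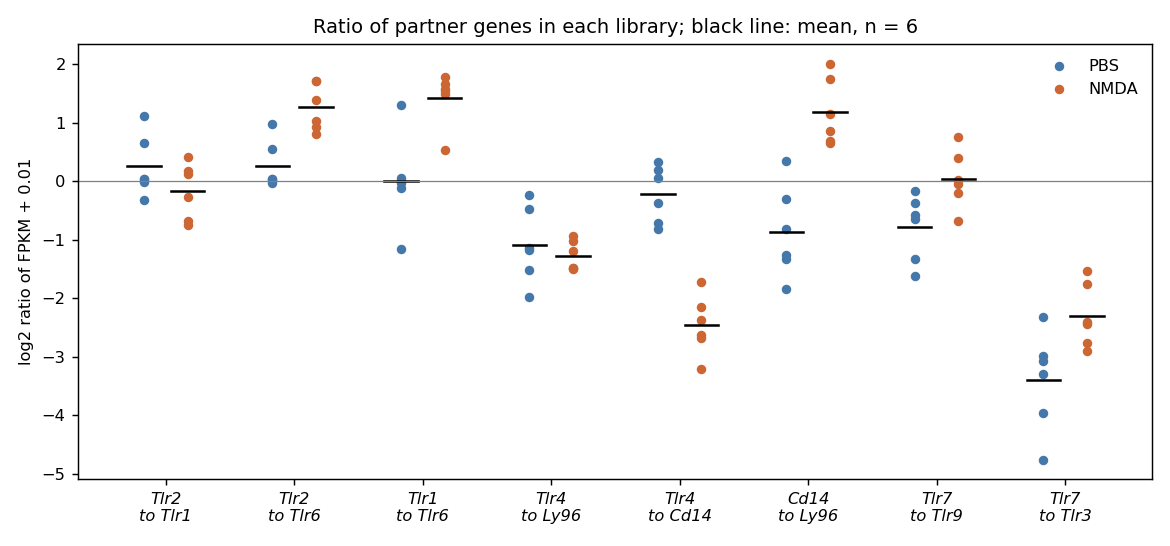
Log2 ratio of deposited FPKM for the 8 pairs of genes in every library, PBS and NMDA side by side, with lines for the means of 6 libraries. The groups are apart for Tlr4 to Cd14 and for Cd14 to Ly96 and overlap for the other 6 pairs.

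Within the groups the members varied together to different degrees. Pearson correlations of the deviations from the group means were computed for the 45 pairs over the 12 libraries, which share depth and tissue composition, and are given as a description. The highest were those of Tlr2 with Tlr4 (0.807), Tlr2 with Cd14 (0.790), Tlr1 with Tlr2 (0.767) and Tlr1 with Tlr4 (0.764). The lowest was that of Tlr3 with Myd88 (-0.310). NMDA 1 was the lowest NMDA library for Tlr4, Tlr6, Cd14, Ly96 and Myd88, and NMDA 2 for Tlr1, Tlr2, Tlr7 and Tlr9. PBS 5 was the highest PBS library for Tlr2, Tlr4, Tlr6 and Tlr7.

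By the same measure, the genes most like each member among those with an average of at least 1 log2 CPM were as follows. For Tlr2 they included Nadk (0.943) and Spi1 (0.935), which encodes PU.1. For Tlr1 they were Slfn2 (0.95), Slfn4 (0.927) and Coro1a (0.922), a leukocyte actin-binding protein. For Tlr4 they were Steap4 (0.964), Tmem39a (0.958) and the TNF receptor gene Tnfrsf1b (0.947), and for Tlr6 Iqgap1 (0.966), Klf10 (0.944) and Cnn2 (0.93). For Cd14 they were Aven (0.925), Dennd3 (0.922) and Rap1b (0.908). Myd88 was most like Clip4 (0.937), the IRAK kinase gene Irak4 (0.905) and Tm6sf1 (0.896). Tlr7 was most like Arid5a (0.932), the DNA-sensing adaptor gene Sting1 (0.892) and Snapc2 (0.868). Ly96 had Glrx2 (0.906) and Dzip1l (0.867) among its genes, Tlr9 had Scgn (0.882), RGD1563861 (0.875) and Itgb3bp (0.871), and Tlr3 had Cldn23 (0.852), Dsel (0.843) and Pdha1l1 (0.835). With 12 libraries and so many candidate genes, high values arise easily, and no test is attached to them.

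The rest of the pathway was described with lists of 97 genes, of which 93 were found and 76 tested. Of these, 38 were higher, 5 lower and 33 not called, with a median log2 fold change of 0.46 against 0.01 for all tested genes. Among all tested genes, 20.4% were called higher and 17.5% lower. Every count of a pathway or marker list below is to be read beside these shares. A gene near 0 in PBS passed the count filter mainly through the NMDA libraries, so counts of such genes lean towards rises. The further receptor Tlr8, another sensor of single-stranded RNA, was the 1 tested gene of its list and rose from 0.394 ± 0.275 to 3.54 ± 1.35 CPM (SD, n = 6 each; log2 fold change 3.19 ± 0.43, edgeR adjusted p = 0.0001936). Of the trafficking and accessory proteins, 5 of 10 tested rose and none fell. Among them were Unc93b1, which carries the endosomal receptors from the endoplasmic reticulum (log2 fold change 1.03 ± 0.14, edgeR adjusted p = 0.00020195), and Slc15a3, an endosomal transporter (2.19 ± 0.29, adjusted p = 0.0001576). The pair Cd180 (1.47 ± 0.21) and Ly86 (1.46 ± 0.28), relatives of Tlr4 and Ly96, also rose (edgeR adjusted p = 0.00026715 and 0.0012443).

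Of the other adaptors, 2 of 4 tested rose and 1 fell. Pik3ap1, which links the receptors to phosphoinositide 3-kinase, had a log2 fold change of 1.66 ± 0.22 (edgeR adjusted p = 0.00017209), and Ticam2, the bridging adaptor of Tlr4, one of 1.07 ± 0.16 (adjusted p = 0.00032956). Sarm1, an adaptor known for its part in axon degeneration, fell by 0.18 on the log2 scale (edgeR adjusted p = 0.025363), and this call was lost in 9 of the alternatives, among them leaving out PBS 1, PBS 2, PBS 4, NMDA 5 or NMDA 6. Of the 20 kinases and ubiquitin ligases, 7 rose, 1 fell and 12 were not called, with a median of 0.12. Irak4, the kinase that MyD88 recruits, rose by 0.73 ± 0.16, Ripk1 by 0.31 ± 0.05 and Irak1 by 0.23 ± 0.04, while the ligase gene Peli2 fell by 0.30 (edgeR adjusted p from 0.00063381 to 0.0043713). The largest called rises of the list were those of the kinase gene Map3k8 (log2 fold change 0.97, edgeR adjusted p = 0.0095046) and the ubiquitin-conjugating enzyme variant gene Ube2v1 (0.84, adjusted p = 0.042072), both named after their values were seen.

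The inhibitors were mixed. Of 11 tested, 3 rose, 2 fell and 6 were not called, with a median log2 fold change of 0.04. These counts do not set the inhibitors apart from all tested genes, of which 20.4% were called higher and 17.5% lower. Socs3, which restrains cytokine signalling, rose by 2.82 ± 0.53, the ribonuclease gene Zc3h12a by 1.34 ± 0.24, and Irak3, an inactive member of the IRAK family, by 0.65 ± 0.17 (edgeR adjusted p = 0.0017249, 0.00095413 and 0.0084041). Tollip, which binds the receptors and IRAK1, fell by 0.22 (edgeR adjusted p = 0.0017196). The larger fall of the list was that of Tnfaip3, named after its value was seen. It had a log2 fold change of -0.51 (edgeR adjusted p = 0.049454), and its groups overlapped. Of the 10 transcription factors, 8 rose and none fell, with a median of 0.89. Irf8, a factor of myeloid cells, rose by 1.61 ± 0.22, the NF-kB subunit genes Nfkb2 and Rela by 1.17 ± 0.14 and 0.41 ± 0.07, and Irf1 by 0.63 ± 0.11 (edgeR adjusted p from 0.00010047 to 0.00062615).

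Of the genes that the pathway is known to induce, 12 of 21 could be tested, 8 rose and 1 fell, with a median of 1.53. Tnf, Il6, Il10, Il12b and Ifnb1 were among those not tested. The fall was that of Il12a, with a log2 fold change of -1.54 (edgeR adjusted p = 0.0062898) and overlapping groups. Il12a and these untested genes were named after their values were seen. The monocyte chemokine gene Ccl2 rose from 0.613 ± 0.437 to 10.1 ± 6.65 CPM (SD, n = 6 each; log2 fold change 4.02 ± 0.65, edgeR adjusted p = 0.00060306), although its groups overlapped. Il1rn, the interleukin-1 receptor antagonist, rose by 2.47 ± 0.38, the adhesion molecule gene Icam1 by 1.47 ± 0.30 and the NF-kB cofactor gene Nfkbiz by 1.24 ± 0.23 (edgeR adjusted p = 0.00033981, 0.0023265 and 0.001331). Of the endogenous ligands described for these receptors, 4 of 8 tested rose and none fell. Fn1, fibronectin, rose by 2.29 ± 0.38, and the chaperone gene Hspd1 and the chromatin protein gene Hmgb1 by 0.43 ± 0.07 and 0.30 ± 0.06 (edgeR adjusted p = 0.00082354, 0.00064501 and 0.001845). S100a9, a neutrophil and monocyte protein that binds TLR4, had a log2 fold change of 4.08 ± 1.22 (edgeR adjusted p = 0.020734), and single libraries moved it far. The log2 fold change of S100a9 was 2.66 without NMDA 6, where the call was lost (edgeR adjusted p = 0.05517), and 5.81 without PBS 5 (adjusted p = 0.009256). The call was also lost with limma on log2(FPKM + 1), with an adjusted p of 0.05122. In NMDA 6 it stood at 13.7 CPM against at most 2.86 CPM in the other NMDA libraries.

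Most tested markers of microglia, monocytes and neutrophils, cells that carry these receptors, were also called higher in the NMDA retinas. Of 15 microglial markers, 9 were called higher and 1 lower, and their summed level was 126 to 153 CPM in PBS and 179 to 276 CPM in NMDA. Within that list Itgam, an integrin shared with other myeloid cells, had a log2 fold change of 2.00, the fractalkine receptor gene Cx3cr1 one of 1.16 and the growth factor receptor gene Csf1r one of 0.76 (edgeR adjusted p = 0.00040091, 3.5362e-05 and 0.003055). The purinergic receptor gene P2ry12 fell, with a log2 fold change of -0.52 (edgeR adjusted p = 0.017767), while Tmem119, Sall1, Gpr34 and P2ry13 were among those not called. These microglial genes were picked out after their values were seen. Of 13 monocyte and macrophage markers, 10 were tested and 8 were higher. Their sum was 34.5 to 89.1 CPM in PBS and 75.7 to 351 CPM in NMDA, and the ranges overlapped between PBS 5 and NMDA 1. Vcan, which is also among the listed endogenous ligands, weighed most in the PBS sum. It averaged 45.1 CPM in PBS and 72.3 CPM in NMDA and was not called (edgeR adjusted p = 0.34239). Of 11 neutrophil markers, 3 were tested and all 3 were higher. The sums of the list were 2.29 to 6.70 CPM in PBS and 5.52 to 64.4 CPM in NMDA. Of the 3 tested, S100a9 is also counted among the endogenous ligands. It averaged 0.185 CPM in PBS and 3.28 CPM in NMDA and passed the count filter mainly through the NMDA libraries. Among the untested neutrophil markers, Mpo had no count in 10 libraries, and Fpr2 had none in all 12. Cxcr2 averaged 0.133 CPM in PBS and 2.93 CPM in NMDA, and S100a8 0.109 and 1.42 CPM. Ngp went the other way, with 0.454 and 0.291 CPM. These untested markers were also named after their values were seen.

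Lymphocyte markers summed to 2.85 to 5.00 CPM in PBS and 4.50 to 9.497 CPM in NMDA (2 of 4 tested higher, 1 lower). Dendritic cell markers summed to 3.85 to 6.07 CPM in PBS and 5.03 to 9.33 CPM in NMDA (1 of 3 tested higher). Those called higher, Cd3e, Cd8a and Ccr7, averaged 0.137, 0.0772 and 0.0441 CPM in PBS. In NMDA they averaged 0.551, 2.63 and 1.17 CPM. They passed the count filter mainly through the NMDA libraries, so these counts lean towards rises. Of the 7 tested markers of endothelium and pericytes, 3 were higher (Flt1, Pecam1 and Tek, with log2 fold changes of 0.60, 0.47 and 0.43) and 1, Rgs5, was lower (-0.61). Their sum was 735 to 846 CPM in PBS and 755 to 997 CPM in NMDA. Müller glia and astrocyte markers (3 of 8 higher, 4 lower) summed to 3050 to 4216 CPM in PBS and 2756 to 3467 CPM in NMDA. Of the 12 retinal neuron markers 8 were lower, and of the 6 pigment epithelium markers 3 were lower. Rlbp1 (log2 fold change -1.14) is on both the Müller glia and the pigment epithelium list and is counted as lower in each. NMDA 6, the highest NMDA library for 7 members, also had the highest microglial, monocyte and neutrophil sums, and PBS 5 had the highest such sums of the PBS libraries. The part of cell composition in the changes of the 10 genes was not tested. Without NMDA 6, 8 of the 10 genes were called higher, with log2 fold changes of 2.73 for Cd14, 2.19 for Tlr1, 1.75 for Tlr2 and 1.11 for Myd88.

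**Figure D5:**
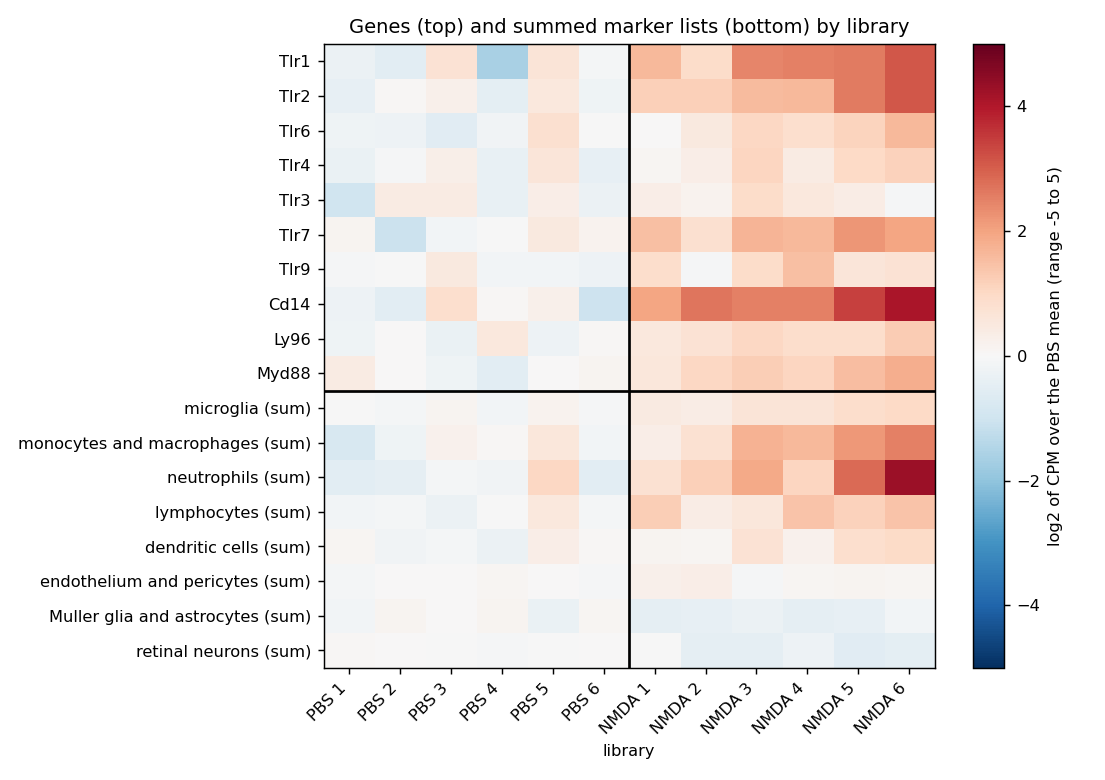
Log2 level of each member and of the summed markers of cell types in every library, relative to the PBS mean, on a color scale from -5 to 5. NMDA 6 has high values for 7 members and for the microglial, monocyte and neutrophil sums.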

How the data were processed

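Retinal RNA was sequenced from 6 PBS-injected and 6 NMDA-injected rats. The authors deposited gene-level read counts and FPKM for each library, per the file headers. The submitters' processing notes name Bowtie2, RSEM 1.3.1 and DESeq2 1.4.5 without roles. The genome build, strand setting and treatment of multi-mapping reads are not given in the sources used here. No column of values lacked a sample.

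Groups came from the sample titles. Counts were scaled by TMM (factors 0.976 to 1.034), filtered with filterByExpr (minimum count 10, total 15) and tested with edgeR 4.0.16 in R 4.3.3 (robust quasi-likelihood). All genes entered 1 fit, Benjamini-Hochberg adjusted. DESeq2 1.42.0, limma 3.58.1, other filters and scalings, and leaving out each library were alternatives. Ratios of FPKM were tested by exact permutation in Python 3.11.15. The fits were tested on simulated data. Genes with no count in any library numbered 7183.

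The members, lists and tests were chosen with earlier results of these data known. All 10 members are named, with up to 4 called genes of the smallest adjusted p per pathway list, and the 3 genes most like each member, except a few genes that are not reported here. Symbols of the lists that did not match were not analysed here.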

Additional observations from a re-analysis of the deposited data

Results flagged for a closer look

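A sample far from the others of its group was sought with Dixon's test in 76 groups, the named genes in each group of 6 libraries, and 6 were found. Chance flags about 1 in 20 groups. Among the members, Tlr6 stood at 2.063 CPM in PBS 5, with the nearest PBS library at 1.181 CPM. Tlr9 stood at 0.6807 CPM in PBS 3, with the nearest at 0.4706 CPM, and PBS 3 has the lowest total count of the libraries. Ly96 stood at 1.234 CPM in PBS 4, with the nearest at 0.886 CPM.

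Among the pathway genes, Rela was low in NMDA 1, at 36.3 CPM against 42.11 CPM in the nearest NMDA library. S100a9 stood at 0.8728 CPM in PBS 5, against 0.198 CPM in the nearest PBS library, and at 13.66 CPM in NMDA 6, against 2.864 CPM in the nearest NMDA library. Reasons for these values were not tested.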

How the results depend on the processing

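Between 8 and 9 of the 10 members were called higher under every alternative run, and none was called lower. The lost call was Tlr4 when certain single libraries were left out, and Tlr9 was not tested when 1 CPM in 6 libraries was required. Pathway genes called lower numbered 5, but 3 when scaled by library size only, 3 with limma on log2(FPKM + 1), 3 with limma on log2(FPKM + 0.1), and 3 to 5 when a library was left out. All tested genes gave 5287 to 7103 calls against 6167. With the rat number as a replicate block, 5593 genes and 9 members were called. Same-numbered rats did not vary together (correlations from -0.19 to 0.153), and 1 of the 6 numbers matched best with itself. Between 4 and 6 of the 8 ratios passed when a library was left out. For the ratios, the replicate block left 0 of 6 calls, with an adjusted p of 0.0833 for each; with 6 pairs of rats, a pass after adjustment needs at least 6 of the 8 ratios at the smallest p that sign changes allow. Counts as low as 5 for Tlr1 and 11 for Tlr9 and Ly96 limit their precision.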
